A study of Rattus norvegicus with 6 samples.

Results

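Cell adhesion genes of the cadherin and immunoglobulin families were followed in cultured rat OPCs (oligodendrocyte progenitor cells), which divide and mature into the myelinating cells of brain and spinal cord. Members were all genes of the array's annotation whose symbol starts with Cdh and a digit, Pcdh, Cntn and a digit, Ncam1 or Ncam2, Nrxn, Nlgn, Igsf, Lrrtm, Nectin or Cadm. This gave 62 genes of the 13949 that had values and a name of their own. RNA from 3 OPC samples exposed to fibrinogen for 12 h and from 3 unstimulated control samples was hybridised to 6 Affymetrix arrays. The OPCs of both groups came from pups of postnatal day 1 to 2 and had spent 2 days in a proliferation medium with N2, B27, NT3 and PDGF. No strain, sex or fibrinogen dose was given in the sources used here. Fibrinogen is the clotting protein of blood plasma, which reaches OPCs where vessels leak, and the series title ties it to bone morphogenetic protein (BMP) signaling and to poor myelin repair. Each value is a log2 level of 1 probe set on 1 array, so that a difference of 1 is a doubling.

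Cadherins are calcium-dependent adhesion proteins that mostly bind the same or a close relative on the next cell and are tied to actin through catenins. Contactins, NCAMs, nectins, Cadm and Igsf proteins carry immunoglobulin domains and bind without calcium. Neurexins, with their partners the neuroligins and Lrrtm proteins, are best known from synapses. OPCs make many of these proteins, touch axons with them and receive synapses from neurons.

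All 6 measured OPC markers (Pdgfra, Cspg4, Sox10, Olig1, Ptprz1 and Gpr17) lay above background, taken as the 95th percentile of 956 olfactory and vomeronasal receptor genes (log2 level 5.51). The mean log2 level of these markers was 10.72 to 10.88 on the fibrinogen arrays and 11.05 to 11.08 on the control arrays. That of 5 astrocyte markers was 8.29 to 8.43 on the fibrinogen arrays and 7.92 to 7.99 on the control arrays, and these ranges did not overlap either. Within the lists Gpr17, Pdgfra and Cspg4 fell by 0.66, 0.40 and 0.35 and Olig1, Sox10 and Ptprz1 had changes of -0.07 to -0.03, while Gfap and Slc1a2 rose by 1.24 and 0.65 (limma) and Slc1a3, Aqp4 and Gja1 had 0.23, 0.01 and -0.04. All 5 astrocyte markers, all 6 neuron markers and all 5 oligodendrocyte markers measured lay above background too. The mean of the 6 neuron markers was 8.59 on fibrinogen 2, 8.31 and 8.33 on fibrinogen 1 and 3, and 8.31 to 8.35 on the control arrays. On fibrinogen 2 the synaptic vesicle gene Syt1 was at 8.58, against 7.60 to 7.65 on the other arrays, and this array also lay farthest from its group mean over all genes (SD 0.146, against 0.0862 to 0.114 for the others). The mean of 5 oligodendrocyte markers was 8.37 to 8.47 on the fibrinogen arrays and 8.47 to 8.51 on the control arrays. Among these Cnp fell by 0.48 (adjusted p = 0.0147, limma), while Mbp, Mobp, Mag and Mog did not pass, with changes of 0.20, 0.08, 0.02 and -0.14. None of 3 endothelial markers and 2 of 6 microglia markers were above background. These 2 were Cd68, at 6.95 in fibrinogen cells and 7.06 in control cells, and Cx3cr1, at 5.72 and 5.71. Aif1 and Csf1r were not above background, nor were Itgam and Ptprc, at 4.01 and 3.73 in fibrinogen cells and 4.02 and 3.79 in control cells. Of 5 fibroblast and pericyte markers 3 were above background, and the mean of the 5 was 5.67 to 5.84 on the fibrinogen arrays and 5.77 to 5.82 on the control arrays. The part of these marker differences in the results below was not tested, and in such bulk RNA fewer cells of a type and less RNA per cell cannot be told apart.

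Fibrinogen changed 8 of the 62 adhesion genes (12.9%), with 6 higher and 2 lower than in control OPCs (limma, Benjamini-Hochberg adjusted p under 0.05 over all genes). Over all 13949 genes the share was 3.1%, with 1.81% higher and 1.29% lower. The genes that rose were Igsf11, the cadherins Cdh6, Cdh22 and Cdh20, the nectin-like Cadm3 and the protocadherin Pcdh8. The contactin Cntn6 and the leucine-rich synaptic protein Lrrtm4 fell. The median log2 change of the 62 genes was 0.07, with 40 above 0 and 22 below, and that of all genes was -0.0033. Without adjustment, p was under 0.05 for 13 adhesion genes with higher and 6 with lower levels, where 8.12% and 7.46% of all genes passed. Above background lay 50 of the 62, among them all 8 that changed, and of all genes above background 2.41% were called higher and 1.73% lower, 4.14% in all.

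**Figure D1:**
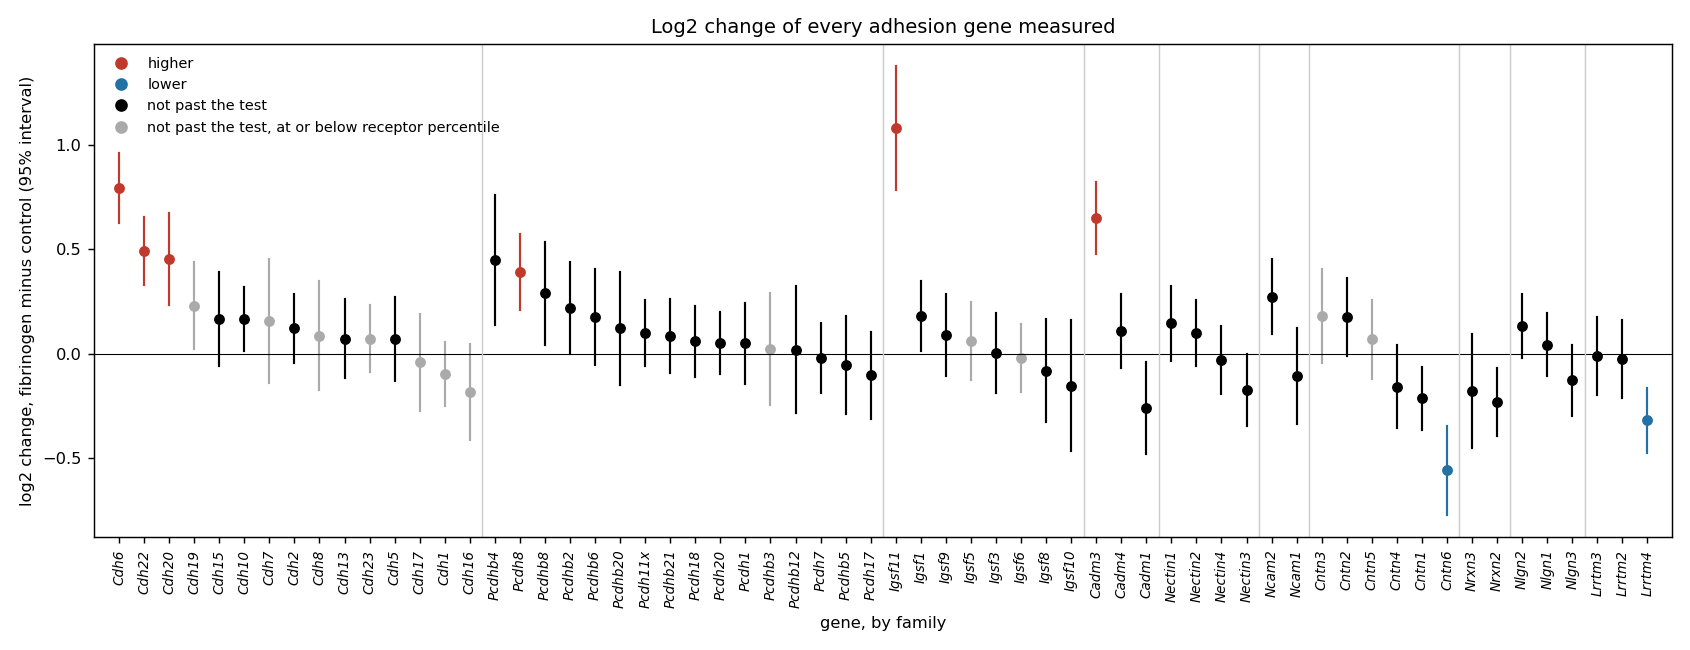
Log2 change (fibrinogen minus control, with its 95% interval) of each of the 62 adhesion genes, grouped by family and ordered within it. Red marks the 6 genes that rose, blue the 2 that fell, black the others and grey those not above background. Igsf11 stands highest at 1.08 and Cntn6 lowest at -0.56.

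The promoters of 4 of the genes that changed are shown because the series title names BMP signaling, whose Smad factors bind the motifs GGCGCC and GTCT. RefSeq (build GRCr8) gave a promoter for 49 of the 62 genes, from 250 bases before to 50 bases after the start, in which both strands were searched, and a match to one motif cannot overlap a match to the other. Igsf11 and Cdh6 had the 2 largest rises, Cntn6 had the largest fall, and Pcdh8 was the only gene of the 8 with GGCGCC. Capitals mark matches to either motif, and AGAC is GTCT on the other strand.
Igsf11, chr11:75373855-75374154, minus strand: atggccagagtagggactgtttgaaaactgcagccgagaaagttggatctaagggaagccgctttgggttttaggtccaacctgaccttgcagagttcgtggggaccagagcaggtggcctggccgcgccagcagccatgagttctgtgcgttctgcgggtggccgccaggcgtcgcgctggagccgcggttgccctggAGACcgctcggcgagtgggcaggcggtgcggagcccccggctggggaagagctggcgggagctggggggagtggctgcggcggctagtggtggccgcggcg
Cdh6, chr2:63952238-63952537, minus strand: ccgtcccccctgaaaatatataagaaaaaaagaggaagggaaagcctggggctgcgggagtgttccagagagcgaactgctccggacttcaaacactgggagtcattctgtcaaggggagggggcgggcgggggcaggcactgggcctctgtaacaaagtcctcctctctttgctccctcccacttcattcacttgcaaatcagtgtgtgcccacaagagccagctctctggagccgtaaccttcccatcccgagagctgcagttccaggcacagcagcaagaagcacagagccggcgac
Pcdh8, chr15:61612041-61612340, minus strand: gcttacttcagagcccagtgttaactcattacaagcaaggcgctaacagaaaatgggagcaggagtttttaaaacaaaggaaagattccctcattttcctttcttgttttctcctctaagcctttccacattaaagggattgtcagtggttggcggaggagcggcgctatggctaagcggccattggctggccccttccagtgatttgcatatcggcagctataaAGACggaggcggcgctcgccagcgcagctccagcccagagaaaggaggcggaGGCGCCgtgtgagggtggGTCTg
Cntn6, chr4:138911317-138911616, plus strand: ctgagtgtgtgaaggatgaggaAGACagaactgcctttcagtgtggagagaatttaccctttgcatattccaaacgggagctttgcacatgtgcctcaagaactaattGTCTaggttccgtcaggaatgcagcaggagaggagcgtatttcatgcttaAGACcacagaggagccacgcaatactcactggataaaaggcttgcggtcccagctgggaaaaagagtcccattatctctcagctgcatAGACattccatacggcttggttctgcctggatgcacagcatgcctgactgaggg

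GGCGCC stood in 1 of the 6 promoters of genes that rose, 0 of the 2 of genes that fell and 2 of 41 others, where 11.0% of all 33469 promoters held it. GTCT stood in 4 of 6, 2 of 2 and 34 of 41, and in 88.8% of all promoters. Igsf11 had 1 GTCT, Pcdh8 2, Cntn6 4 and Lrrtm4 4, while Cdh6 and Cadm3 had neither motif in this window. These matches describe letters in the reference sequence and no binding was measured.

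The largest change among the 62 genes was in Igsf11, an immunoglobulin protein that binds to itself across cells and, in rodent neurons, anchors glutamate receptors at synapses. Its log2 level was 9.65, 10.11 and 9.74 on the fibrinogen arrays and 8.58, 8.80 and 8.88 on the control arrays. Every fibrinogen array was above every control array, and fibrinogen 2, where Syt1 was high, had the highest value. Igsf11 rose by 1.08 ± 0.13 (SE) on the log2 scale, 2.11-fold, with an adjusted p of 0.00386 (limma), and ranked 19 among all genes by the size of its change. Without fibrinogen 2 the change was 0.94, and Igsf11 passed in each of the 6 fits that left out 1 array.

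None of the other 7 Igsf genes passed in limma, although 1 of them, Igsf1, passed at an unadjusted p under 0.05. Igsf1, known for its part in the pituitary control of the thyroid, had 6.10, 6.11 and 6.22 on the fibrinogen arrays and 6.04, 5.92 and 5.93 on the control arrays. Its groups were separate by a narrow margin, and the change of 0.18 ± 0.07 (SE) had an adjusted p of 0.278 (limma). Igsf8, a partner of tetraspanins in the membrane, averaged 8.04 ± 0.22 in fibrinogen cells and 8.12 ± 0.06 in control cells (SD, n = 3 each), a difference of -0.08 whose sign turned without fibrinogen 2 (0.047). Igsf3, Igsf9, Igsf10, Igsf5 and Igsf6 had log2 changes from -0.15 to 0.09, the last 2 of them not above background.

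**Figure D2:**
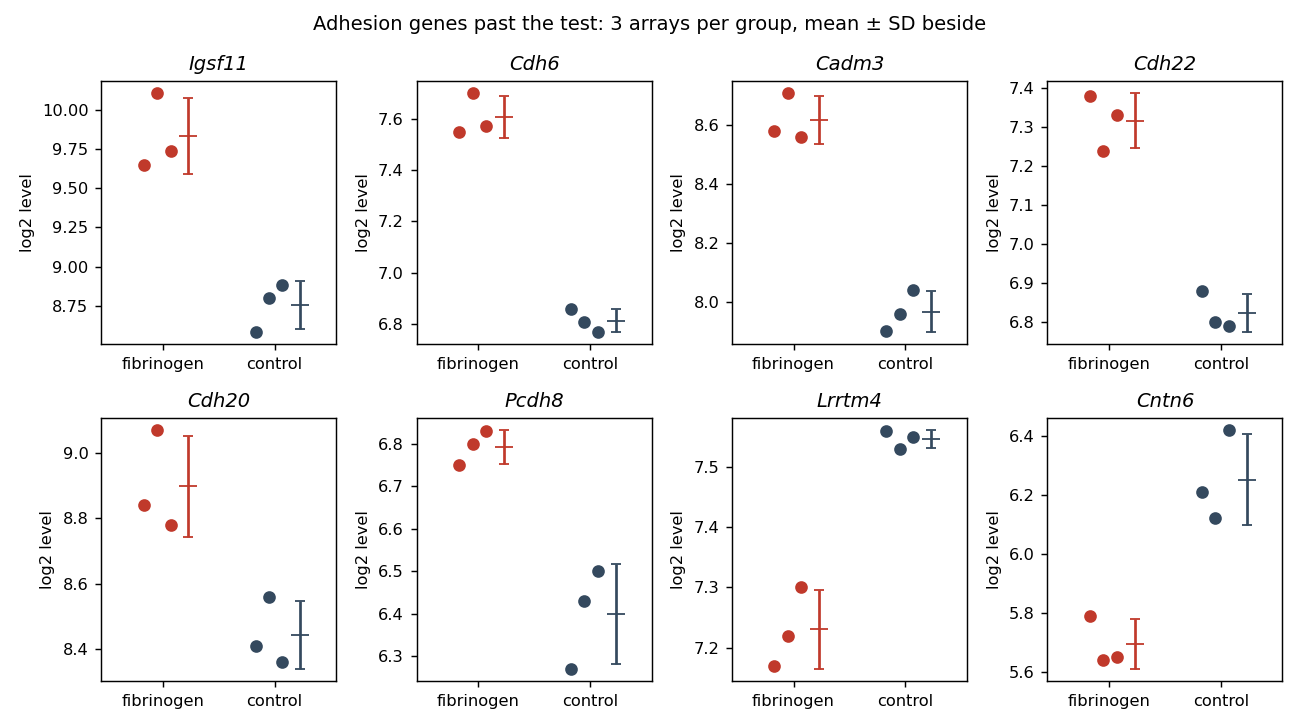
Log2 level on each array of the 8 adhesion genes that passed the test, with fibrinogen arrays (red) left of control arrays (dark) and the mean ± SD of each group of 3 beside the points. Each vertical axis has its own range and does not start at 0. The groups do not overlap in any of the 8 genes.

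Type II cadherins, the subfamily with varied and often cell-selective binding in the nervous system, held all 3 of the cadherins that rose. Cdh6, a type II cadherin first known from kidney and later from subsets of neurons, had log2 levels of 7.55, 7.70 and 7.57 on the fibrinogen arrays and 6.86, 6.81 and 6.77 on the control arrays. The groups lay far apart next to their own spread, and fibrinogen 2 had the highest value. Cdh6 rose by 0.79 ± 0.07 (SE), 1.73-fold, with an adjusted p of 0.00142 (limma), and passed without each array in turn (0.75 to 0.82).

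Cdh22, a cadherin of pituitary and brain, had 7.38, 7.24 and 7.33 on the fibrinogen arrays and 6.88, 6.80 and 6.79 on the control arrays. It rose by 0.49 ± 0.07 (SE), 1.41-fold (adjusted p = 0.00931, limma). Its groups were separate, but the call ended without control 2 or control 3, with an adjusted p of 0.0565 and 0.0569 (limma).

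Cdh20, a type II cadherin, had 8.84, 9.07 and 8.78 on the fibrinogen arrays and 8.41, 8.56 and 8.36 on the control arrays. The highest value was that of fibrinogen 2, as for Igsf11 and Cdh6. Cdh20 rose by 0.45 ± 0.10 (SE), 1.37-fold, with an adjusted p of 0.0440 (limma). This call was near the threshold: it ended after median centring of the arrays (0.0507), when every probe set was tested (0.0675) and in all 6 fits without 1 array, where the adjusted p was 0.0565 to 0.164 and the change 0.37 to 0.51.

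The other 5 type II cadherins did not pass, and with them all 8 measured had a log2 change above 0, with a median of 0.20. Of all 13949 genes 6913 had a change above 0. The grouping of type II cadherins was drawn up after the values were seen and was given no test. Cdh10, found in brain, had 8.35, 8.23 and 8.28 on the fibrinogen arrays and 8.13, 8.14 and 8.09 on the control arrays, with a change of 0.17 ± 0.07 (SE, adjusted p = 0.280, limma). Cdh19, Cdh7 and Cdh8 had changes of 0.23, 0.16 and 0.09, none was above background, and their groups overlapped. Cdh5 (VE-cadherin of endothelium), an atypical type II cadherin, was at 5.55 ± 0.05 in fibrinogen cells and 5.48 ± 0.15 in control cells (SD, n = 3 each), close to the background level, with overlapping groups.

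**Figure D3:**
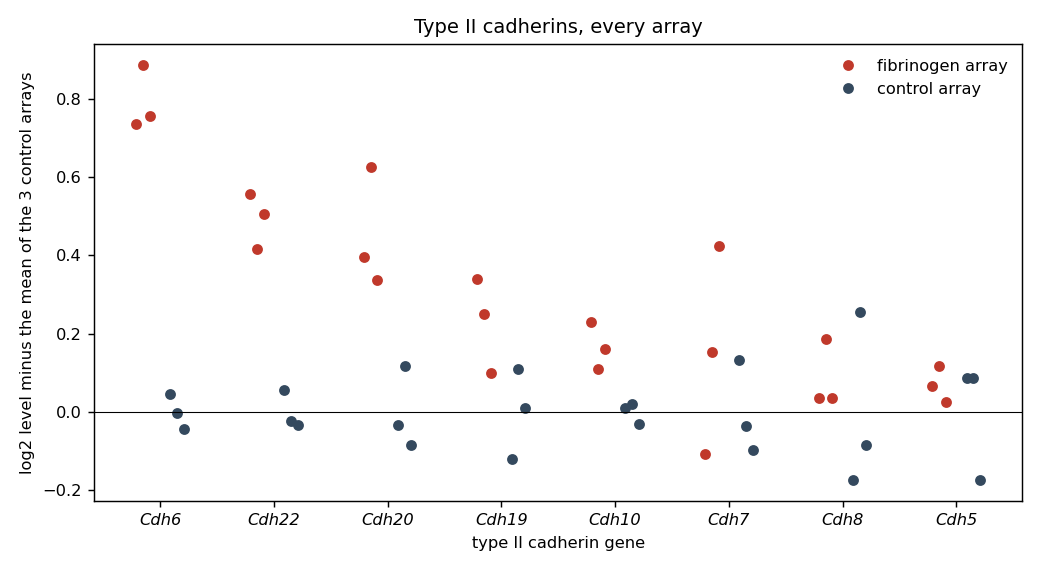
Log2 level of the 8 type II cadherins on each array, less the mean of the 3 control arrays for that gene, with fibrinogen arrays (red) left of control arrays (dark). Fibrinogen arrays lie above all control arrays for Cdh6, Cdh22, Cdh20 and Cdh10 and overlap them for Cdh5, Cdh19, Cdh7 and Cdh8.

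Of the other 7 cadherins 0 passed in limma, and 0 did so at an unadjusted p under 0.05. Cdh2 (N-cadherin), the main classical cadherin of neural cells, had 10.44, 10.60 and 10.48 on the fibrinogen arrays and 10.34, 10.41 and 10.40 on the control arrays. The fibrinogen values were all higher, but the change of 0.12 had a 95% interval of -0.04 to 0.29 (adjusted p = 0.474, limma). Cdh1 (E-cadherin of epithelia) and the kidney and gut cadherins Cdh16 and Cdh17 were not above background. Cdh15 of muscle, the lipid-anchored Cdh13 and Cdh23 of inner ear hair cells had changes of 0.17, 0.07 and 0.07, with Cdh23 not above background.

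Of 16 protocadherins, which lack the classical catenin-binding tail, 1 rose and 0 fell (limma). This was Pcdh8, which in rodent neurons is made on activity and takes N-cadherin off the surface. Its log2 level was 6.75, 6.80 and 6.83 on the fibrinogen arrays and 6.27, 6.43 and 6.50 on the control arrays. The groups were separate, and Pcdh8 rose by 0.39 ± 0.08 (SE), 1.31-fold (adjusted p = 0.0382, limma). The call ended with the replicate number as a block (adjusted p = 0.0547), when every probe set was tested (0.0577) and in all 6 fits without 1 array, with adjusted p-values of 0.0645 to 0.133 and changes of 0.33 to 0.44. Its promoter, printed with those of Igsf11, Cdh6 and Cntn6, held GGCGCC once. The other 6 non-clustered protocadherins (Pcdh1, Pcdh7, Pcdh11x, Pcdh17, Pcdh18 and Pcdh20) had changes from -0.10 to 0.10, and 0 of these 6 passed at an unadjusted p under 0.05.

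The 9 beta protocadherins with probe sets of their own belong to a cluster of like genes that give neurons their surface identity. None passed in limma, although 3 with higher and 0 with lower levels had an unadjusted p under 0.05. A change above 0 was found in 8 of the 9 (median 0.12) and in 6913 of all 13949 genes. Pcdhb4 had 6.06, 5.95 and 5.50 on the fibrinogen arrays and 5.36, 5.48 and 5.32 on the control arrays. The groups were separate only just, since fibrinogen 3 lay near the controls. Its change was 0.45 ± 0.14 (SE, adjusted p = 0.140), and without fibrinogen 3 it was 0.62 and passed (adjusted p = 0.0173, limma). Pcdhb2 and Pcdhb8 had changes of 0.22 and 0.29, and the other 6 (Pcdhb3, Pcdhb5, Pcdhb6, Pcdhb12, Pcdhb20 and Pcdhb21) from -0.05 to 0.18. Pcdhb3 was not above background. The beta protocadherins are close copies of each other, so that probes may be shared and their values are uncertain.

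Cadm3, a nectin-like protein of neurons and axons that binds other Cadm proteins and nectins, had 8.58, 8.71 and 8.56 on the fibrinogen arrays and 7.90, 7.96 and 8.04 on the control arrays. No fibrinogen value came near the controls, and the highest was again that of fibrinogen 2. Cadm3 rose by 0.65 ± 0.08 (SE), 1.57-fold, with an adjusted p of 0.00347 (limma), and passed without each array in turn (0.60 to 0.69).

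Its binding partners among the genes measured did not pass, and Cadm4 and Cadm1 were the only other Cadm genes measured. Cadm4, which in peripheral nerve sits on Schwann cells opposite axonal Cadm3, averaged 8.80 ± 0.08 in fibrinogen cells and 8.69 ± 0.08 in control cells (SD, n = 3 each), and the groups overlapped. Cadm1, which also induces synapses, had 9.38, 9.10 and 9.45 on the fibrinogen arrays and 9.59, 9.56 and 9.56 on the control arrays. All 3 fibrinogen values of Cadm1 were lower, that of fibrinogen 2 by most. The change of -0.26 ± 0.10 (SE) had an adjusted p of 0.231 (limma), and without fibrinogen 2 it was -0.16. None of the 4 nectins, which join cells beside cadherins, passed in limma, while at an unadjusted p under 0.05 there was 1 lower and 0 higher. Nectin1 and Nectin3, which prefer each other as partners across cells, had changes of 0.15 ± 0.08 and -0.17 ± 0.07 (SE). Nectin2 and Nectin4 had 0.10 and -0.03.

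Among 6 contactins, lipid-anchored proteins of axons and glia, 1 fell and 0 rose (limma). This was Cntn6, described in rodents as a ligand that acts on Notch receptors of the oligodendrocyte lineage. Its log2 level was 5.79, 5.64 and 5.65 on the fibrinogen arrays and 6.21, 6.12 and 6.42 on the control arrays. The groups were separate, although both lay close above background. Cntn6 fell by 0.56 ± 0.09 (SE) on the log2 scale, to 0.680 of the control level, with an adjusted p of 0.0174 (limma). In its promoter GTCT stood 4 times. The call ended without fibrinogen 3, control 1 or control 3, with an adjusted p of 0.0573, 0.0617 and 0.0665 and a change of -0.54, -0.58 and -0.47 (limma).

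Cntn1, also described as a Notch ligand for oligodendrocyte precursors, had 11.58, 11.66 and 11.62 on the fibrinogen arrays and 11.86, 11.82 and 11.82 on the control arrays. The values within each group were close, and all 3 fibrinogen values were lower. The change of -0.21 ± 0.07 (SE) did not pass (adjusted p = 0.147, limma), but passed when the variance prior followed the level (adjusted p = 0.0287). Cntn2, which gathers potassium channels beside nodes of Ranvier, had a change of 0.18, with a 95% interval of -0.01 to 0.36. Cntn4 had -0.16, and Cntn3 and Cntn5, not above background, had 0.18 and 0.07.

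Ncam1, the NCAM whose polysialic acid chains cover OPCs, had 9.16, 9.50 and 9.33 on the fibrinogen arrays and 9.32, 9.52 and 9.47 on the control arrays. The groups overlapped, and the change of -0.11 had a 95% interval of -0.34 to 0.12 (adjusted p = 0.690, limma). Ncam2, its relative without that sugar, had 8.87, 9.09 and 8.91 on the fibrinogen arrays and 8.65, 8.70 and 8.70 on the control arrays. All fibrinogen values of Ncam2 were higher, but the change of 0.27 ± 0.08 (SE) missed the threshold (adjusted p = 0.123, limma).

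Of 8 genes for neurexins, neuroligins and Lrrtm proteins 1 fell and 0 rose, Lrrtm4, which binds neurexins and heparan sulfate proteoglycans at excitatory synapses. Its log2 level was 7.17, 7.22 and 7.30 on the fibrinogen arrays and 7.56, 7.53 and 7.55 on the control arrays. The control values were nearly equal, and every fibrinogen value was lower. Lrrtm4 fell by 0.32 ± 0.07 (SE), to 0.803 of the control level, with an adjusted p of 0.0467 (limma). The call ended with the replicate number as a block (0.0997), when every probe set was tested (0.0681) and in all 6 fits without 1 array (adjusted p of 0.0625 to 0.168), in which the change was -0.35 to -0.29. Its relatives Lrrtm2 and Lrrtm3 had changes of -0.02 and -0.01, with 95% intervals of -0.21 to 0.16 and -0.20 to 0.18.

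Neither neurexin passed in limma, while 1 was lower and 0 higher at an unadjusted p under 0.05. Nrxn2, presynaptic in neurons, had 8.63, 8.49 and 8.63 on the fibrinogen arrays and 8.82, 8.80 and 8.82 on the control arrays. The groups did not overlap, with a change of -0.23 ± 0.07 (SE, adjusted p = 0.147, limma). A second probe set of Nrxn2 had a change of -0.12. Nrxn3 had -0.18, with groups that overlapped. Of the neuroligins, Nlgn2 of inhibitory synapses had a change of 0.13, Nlgn1 of excitatory synapses 0.04 and Nlgn3, of both kinds, -0.13. None of these 3 passed at an unadjusted p under 0.05.

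Over the 62 genes, 13 were higher and 8 lower in all 3 fibrinogen arrays than in all 3 control arrays, where 10.7% and 10.6% of all genes were, 21.3% in either direction. Leaving out arrays gave 4, 4 and 5 genes higher without fibrinogen 1, 2 and 3, and 4, 3 and 3 without control 1, 2 and 3. The number lower was 1, 1 and 0 without fibrinogen 1, 2 and 3, and 0, 1 and 0 without control 1, 2 and 3. Igsf11, Cdh6 and Cadm3 were called in every one of these fits.

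**Figure D4:**
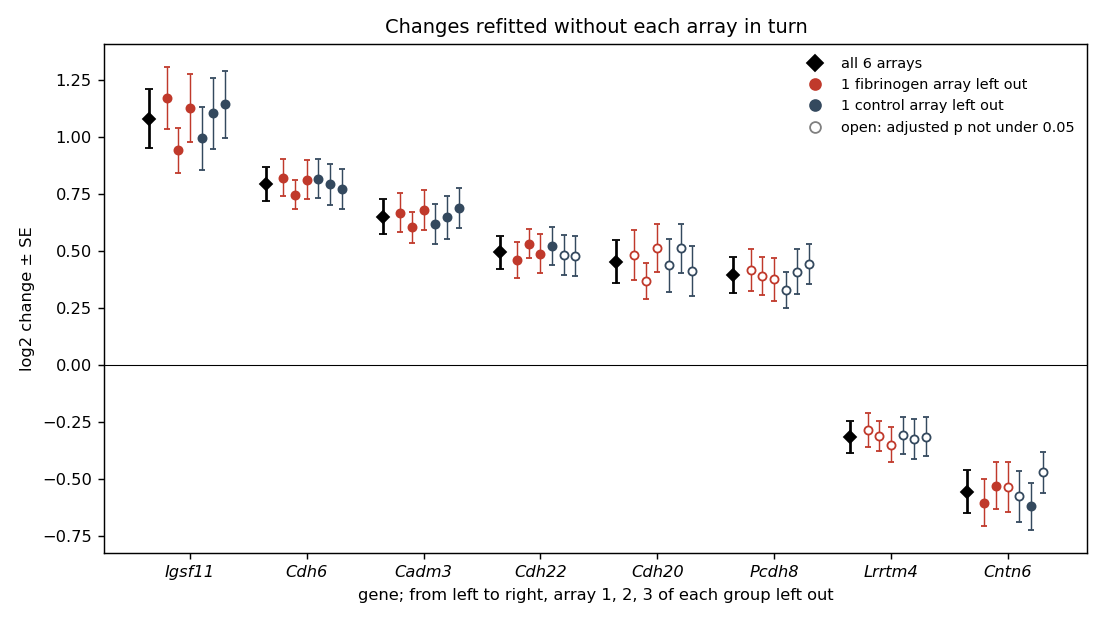
Log2 change (± SE) of the 8 genes that passed, with all 6 arrays (diamond) and without each fibrinogen array (red) or control array (dark) in turn. Filled circles passed the test. Igsf11, Cdh6 and Cadm3 are filled throughout, while Cdh20, Pcdh8 and Lrrtm4 are open in all 6 fits.

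**Figure D5:**
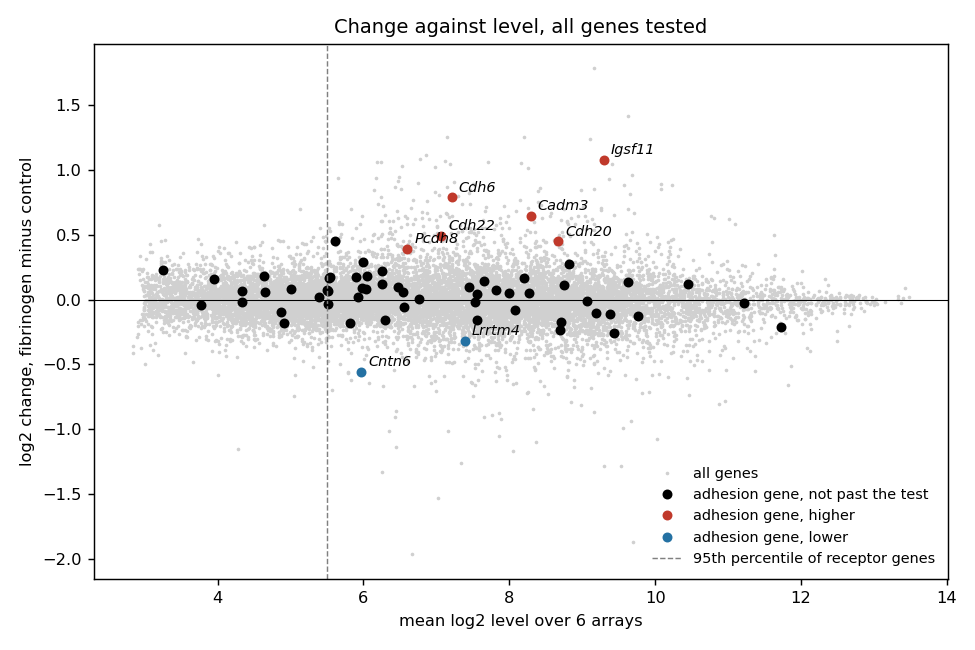
Log2 change (fibrinogen minus control) against mean log2 level over the 6 arrays for all 13949 genes (grey), with adhesion genes that rose in red, fell in blue and did not pass in black. The dashed line is the background level of 5.51. All 8 genes that passed lie to its right.

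Genes that work with these proteins were taken from lists drawn up from general knowledge. Of 13 catenin and junction plaque genes 0 passed in limma, with an unadjusted p under 0.05 for 2 higher and 1 lower and a median log2 change of -0.02. The largest change was that of Jup (plakoglobin), a catenin of junctions, which had 8.08, 8.11 and 8.15 on the fibrinogen arrays and 7.76, 7.85 and 7.87 on the control arrays (0.29 ± 0.07, SE, adjusted p = 0.0674). Of 12 large and desmosomal cadherins 0 passed, with 0 at an unadjusted p under 0.05. The largest difference was that of the giant cadherin Fat1, at 8.88 ± 0.33 in fibrinogen cells and 8.63 ± 0.02 in control cells (SD, n = 3 each). Fat1 had 8.58, 9.23 and 8.84 on the fibrinogen arrays and 8.64, 8.64 and 8.60 on the control arrays. These groups overlapped, and the adjusted p was 0.447 (limma).

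Of 13 genes of the L1 family and contactin partners 0 passed in limma, with an unadjusted p under 0.05 for 2 higher and 0 lower. Nrcam, an L1 family protein of nodes of Ranvier, came close, with 7.46, 7.76 and 7.61 on the fibrinogen arrays and 6.84, 7.25 and 7.15 on the control arrays (0.53 ± 0.12, SE, adjusted p = 0.0561, limma). Its groups did not overlap. Of 7 protease genes that shed adhesion proteins 0 passed, with 0 at an unadjusted p under 0.05, and Bace1 had the largest change (-0.19).

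Of 6 genes for polysialic acid on Ncam1 1 fell and 0 rose. Neu4, a sialidase that can remove these chains, fell by 0.65 ± 0.09 (SE, adjusted p = 0.00597, limma), with 7.10, 7.08 and 7.31 on the fibrinogen arrays and 7.89, 7.73 and 7.81 on the control arrays. St8sia4, a polysialyltransferase, had 6.05, 6.39 and 6.47 on the fibrinogen arrays and 6.71, 6.78 and 6.66 on the control arrays, separate groups whose change of -0.41 ± 0.11 (SE) missed the threshold (adjusted p = 0.0953, limma). St8sia2, also a polysialyltransferase, had -0.10 and was close to background. The related sialyltransferase St8sia3 had a change of 0.26, with 7.37 on fibrinogen 2 against 6.50 to 6.67 on the other arrays.

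Of 35 synaptic scaffold and leucine-rich partner genes 1 rose and 0 fell (2.86%), close to the 3.1% called among all genes. An unadjusted p under 0.05 was found for 3 higher and 4 lower, and the median log2 change was -0.0033. Adgrl2, a latrophilin that binds teneurins and Flrt proteins, rose by 0.59 ± 0.08 (SE, adjusted p = 0.00860, limma). It had 6.28, 6.29 and 6.18 on the fibrinogen arrays and 5.81, 5.61 and 5.57 on the control arrays, with no overlap. Its call ended without control 2 or control 3, with an adjusted p of 0.0525 and 0.0507 (limma).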

How the data were processed

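RNA of 6 OPC samples was purified on RNeasy columns with DNase, amplified with NuGEN Ovation Pico and labelled with biotin, per the labels' protocols. Each array has 1 deposited value for a probe set. The authors' values were taken to be log2 levels normalized by RMA, which the submitters' processing notes name with limma but without versions or roles. Scale was inferred from the values, centring is unstated, and RMA can compress differences of dim genes. Annotation paired 14700 of 25106 probe sets with 1 symbol, and the one with the highest mean was used per gene. The symbols of all 62 members were unchanged in RefSeq (GRCr8). No genome build was given for the array. No 2 arrays shared identical values in more than 3.63% of genes.

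Groups and replicate numbers came from the sample titles. Labels do not say that replicates were separate cultures, so p-values measure only how these arrays scatter, possibly for technical reasons. The test, two-sided and without covariates, was the moderated linear model of limma (version 3.58.1, run in R 4.3.3), with Benjamini-Hochberg adjustment over all 13949 genes, a threshold of 0.05 and a prior check on simulated data. SDs are over 3 arrays and SEs are moderated. An exact permutation test of 3 against 3 cannot give a p under 0.1. The number of arrays limits the precision.

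Members and lists were chosen with earlier results of these data known. Named genes were members that passed, the 2 of each family with the highest level and the 2 with the largest change above background, 7 fixed members (Cdh2, Ncam1, Ncam2, Cntn1, Cntn2, Cadm4 and Igsf11) and, per partner list, genes that passed or else that with the largest change. The other members, St8sia2, St8sia3, St8sia4 and the marker genes singled out were named after their values were seen, as was the split of cadherins and protocadherins into subfamilies. Alternatives were median centring, 2 filters on dim genes, the mean of a gene's probe sets, a variance trend, array weights, a replicate block, leaving out each array and, chosen after seeing the data, testing every probe set.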

Additional observations from a re-analysis of the deposited data

How the results depend on the processing

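Under 6 alternatives (median centring, either filter on dim genes, the mean of all probe sets of a gene, a trend in the variance prior and array weights) the adhesion genes had 5 or 6 higher and 2 or 3 lower, and their median log2 change stayed between 0.044 and 0.072. Of all 13949 genes, 432 changed in the main fit, 442 after median centring, 435 with the mean of probe sets and 560 with the variance trend. Leaving out genes under the 30th percentile gave 596 of 9768, and leaving out those not above background gave 595 of 9949. These filters kept 46 and 50 adhesion genes. Array weights gave 659 changed genes over all, and the cause was not tested. With these weights the change of Igsf8 was 0.0082. Leaving out 1 array gave 151 to 436 changed genes, 3 to 5 adhesion genes higher and 0 to 1 lower, with fewer samples in each fit. In these fits the change of Igsf8 ran from -0.15 to 0.047, of Lrrtm2 from -0.07 to 0.037 and of Lrrtm3 from -0.08 to 0.04, so that no direction was settled for these 3. Neu4 and Adgrl2 passed in 6 and 4 of the 6 fits. Testing every probe set gave 455 changes among 25106, with 4 adhesion genes higher and 1 lower. Cdh20, Pcdh8 and Lrrtm4 were lost. Both the variance prior and the adjustment then covered all probe sets, and the part of each in these losses was not tested. With the replicate block, 315 genes changed, 5 adhesion genes were higher and 1 lower. The numbers were not taken to pair the samples, since the deviations of same-numbered arrays correlated at 0.0278, 0.0217 and 0.0109, although every array correlated best with its own number, as a hint from the data. Scanner files were not used here, so background correction and normalization could not be varied.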

Other observations

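Of the 66 probe sets that the symbol pattern touched, 3 were paired with several genes and entered no comparison. The probe set shared by 15 alpha protocadherins averaged 5.90 ± 0.09 in fibrinogen cells and 5.89 ± 0.06 in control cells (SD, n = 3 each), and that shared by 13 gamma protocadherins averaged 7.41 ± 0.02 in fibrinogen cells and 7.39 ± 0.04 in control cells (SD, n = 3 each). The probe set shared by Pcdhb9 and Pcdhb10 had 5.82, 5.87 and 5.80 on the fibrinogen arrays and 5.94, 6.03 and 6.13 on the control arrays. Its groups did not overlap, and its change was -0.20 ± 0.08 (SE), with an adjusted p of 0.272 in limma over all 25106 probe sets.

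In the RefSeq gene order of GRCr8, 7 pairs of members lay next to each other with no other protein-coding gene between them. Cntn6 and Cntn4 were such a pair, with changes of -0.56 and -0.16, and Cdh7 and Cdh19 another, with 0.16 and 0.23. The other 5 were pairs of beta protocadherins.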
